A study of Mus musculus with 38 samples.

Results

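BV2 cells, an immortalised mouse microglial line, were compared after growth in direct contact with GL261 glioma cells and after growth alone, both at normal oxygen. The comparison used 4 of the 38 libraries of the series, 2 from co-culture and 2 from monoculture. Each group was kept for 16 h at 21% oxygen before RNA was taken. For co-culture, GL261 cells that stably carry the pEGFP-N1 plasmid were plated first, changed after 24 h to BV2 culture medium with 2% serum, and then seeded with BV2 cells at 2 GL261 cells per BV2 cell. Each cell type is 1 line, the labels call the libraries biological replicates, and how BV2 cells were parted from GL261 cells is not given in the sources used here. The same cultures at under 0.1% oxygen (2 libraries a group) and normoxic co-cultures of bone marrow-derived macrophages (BMDM, primary cells of wild-type mice kept in medium with 10% serum and seeded in equal numbers with GL261 cells, 3 libraries against 2) serve below as separate libraries to set beside the BV2 result. In all groups cells were fixed in 3% glyoxal and poly(A) RNA was sequenced. Of 14432 genes with enough counts to test, 1579 had a mean level in GL261 monoculture at least 4-fold that in BV2 monoculture. These partner-high genes are reported apart, since GL261 RNA left in a BV2 library would raise them, and the other 12853 genes are the subject of the results.

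Microglia and macrophages can make up a large part of the cells in a glioma, and contact with tumour cells is known to alter their cytokine output, lipid handling and antigen presentation. Signals through Toll-like receptors and NF-kB turn on chemokines together with inhibitors that limit the response. Growth factor signals through the ERK kinase turn on immediate early transcription factors within minutes, and proteins of the Sprouty, Spred and dual-specificity phosphatase families act as feedback inhibitors of that route.

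Library totals ran from 13548843 to 23568254 counts, so that 3 counts, the upper limit when a gene has 0, correspond to 0.127 to 0.221 CPM, the count scaled to the library total. That limit covers counting error only. Levels below are CPM scaled by trimmed-mean (TMM) factors unless called plain. The label was checked against defining markers: in plain CPM, Csf1r stood at 518 and 615 in the monocultures and 624 and 519 in the co-cultures, and Trem2 at 159, 167, 155 and 143. Several microglial markers were low in BV2 cells under both conditions, with P2ry12 between 5.53 and 7.64 and Tmem119 between 1.49 and 2.95 plain CPM. The 18 glioma and glial markers summed to 6.58 and 7.08 plain CPM in the monocultures and 51.8 and 33.7 in the co-cultures. Sox10 and Nes led that sum, while Ptprz1 was at 0 in all 4 libraries. In such bulk samples fewer cells of a type and less RNA per cell cannot be told apart. Measured over 282 genes found almost only in GL261 cells, the share of GL261 RNA was 0.952% and 0.565% in the co-culture libraries. Cd8a, Ms4a1, Ly6g and S100a9 were at 0 in all 4 libraries, with 12 T and B cell markers summing to between 0.679 and 1.04 plain CPM and 10 neutrophil markers to between 0.764 and 2.30. The 9 dendritic cell markers summed to 17.0 and 16.6 plain CPM alone and 23 and 23.8 in co-culture, and the 12 fibroblast and endothelial markers, led by Kdr, to 28.3 and 35.7 alone and 22.9 and 20 in co-culture. The part of these shifts in the results was not tested. Mitochondrially encoded transcripts made up 1.90% and 2.72% of counts in the monocultures and 3.34% and 3.41% in the co-cultures.

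Co-culture raised 396 genes (3.08% of the 12853 tested) and lowered 1292 (10.1%), at an adjusted p under 0.05 in the quasi-likelihood test of edgeR. The rises were fewer but larger: 112 of them reached a log2 fold change of 1, against 49 falls of that size. The median log2 change was 0.64 among the rises, -0.51 among the falls and -0.05 over all 12853 genes. Genes that GL261 cells hardly express, under 0.5 plain CPM, made up 31.8% of the rises, 7.51% of the falls and 14.6% of the genes tested. Libraries of the 2 groups did not overlap for 60.2% of the 12853 genes, so that a lack of overlap alone marks little. With 2 libraries a group the counts leaned on single libraries, and 240 genes passed without the second monoculture library, 404 without the first co-culture library and 684 without the second. The share of calls that were lower, 76.5%, also depended on scaling and filtering. It was 57.6% with TMM factors taken without partner-high genes, 58.5% with those genes left out of the fit, 60.4% in a fit of the 4 normoxic libraries and 52.2% among genes at a mean of at least 5 CPM.

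Falls were concentrated among genes with long transcripts. With the 12839 genes of known length cut into 5 equal groups by their longest annotated transcript, 0.428% of the shortest group and 28.8% of the longest were lower in co-culture, while 5.69% and 1.32% were higher. The median log2 change went from 0.23 in the shortest group to -0.28 in the longest. The libraries of 1 condition also differed along this axis, with the monocultures at a median of 0.073 and -0.073 around their mean in the shortest group and the co-cultures at 0.14 and 0.22. In the longest group the monocultures stood at -0.067 and 0.067 and the co-cultures at -0.27 and -0.28. When the trend with length was removed from each library, an alternative added after seeing the data, 465 genes were higher and 429 lower, so that 48.0% of calls were falls. Of the rises 63.4% passed again in the same direction, and of the falls 30.7%. The count with the trend removed stands beside the count of each gene group below. Each count is to be set against the 3.08% of all genes that were higher and the 10.1% that were lower. Whether RNA length itself has a part in any single result was not tested.

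**Figure D1:**
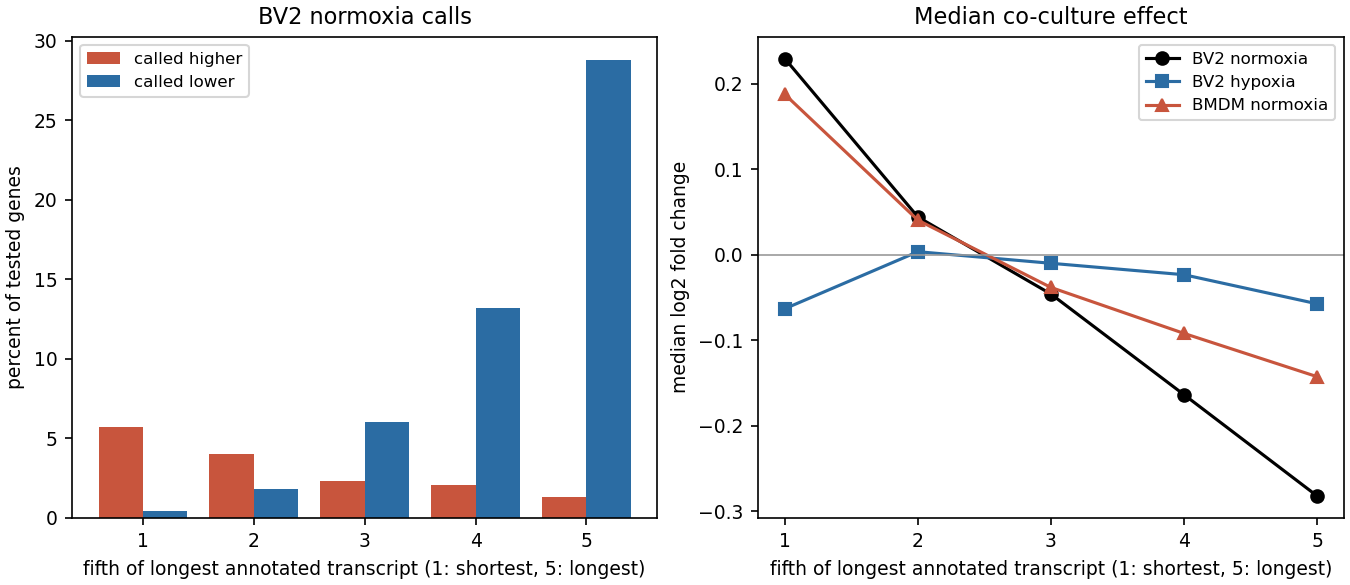
Left, percent of tested genes called higher (red) or lower (blue) in BV2 co-culture in normoxia, for 5 equal groups of genes from the shortest to the longest annotated transcript. Right, median log2 fold change of co-culture over monoculture in the same groups for BV2 in normoxia, BV2 in hypoxia and BMDM in normoxia. Falls reach 28.8% in the longest group, and the median falls along the axis in both normoxic comparisons.

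The 14 largest rises were ranked outside the partner-high genes at a mean of at least 5 CPM. The choice also required that libraries of the 2 groups did not overlap. These 14 included genes of myeloid immune function that GL261 cells lacked. Acod1, on chromosome 14 (103046977 to 103056573, GRCm38), encodes the mitochondrial enzyme that makes itaconate in activated macrophages. It stood at 3.06 and 2.72 CPM in the monocultures and 16.9 and 12.5 in the co-cultures, and at 0 in GL261 monoculture. The groups were well apart, and the rise was 5.04-fold (log2 2.33 ± 0.29 SE, edgeR adjusted p = 0.000134). Il1rn, which encodes the antagonist of the interleukin-1 receptor, went from 10.3 and 6.68 CPM to 34.7 and 19.8 (3.18-fold, edgeR adjusted p = 0.00148). It too was at 0 in GL261 cells. Slamf8, a receptor of the SLAM family on myeloid cells, rose from 3.23 and 2.05 to 12.9 and 6.83 CPM. Cd52, a small lipid-anchored surface protein of leukocytes, rose 2.43-fold, from 9.86 and 5.66 to 21.6 and 16.3 CPM.

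Lyz2, which encodes macrophage lysozyme, was the most abundant coding gene of the 14. Its levels were 192 and 165 CPM alone and 469 and 381 CPM in co-culture (2.38-fold, log2 1.25 ± 0.14 SE, edgeR adjusted p = 3.81e-05). The related receptor genes Lilr4b and Lilrb4a both rose. Lilr4b went from 16.7 and 16.6 to 49.0 and 33.6 CPM, and Lilrb4a from 12.3 and 13.5 to 35.6 and 25.3. These neighbours share sequence, with 15% of the 75-base words of Lilr4b transcripts and 39.8% of those of Lilrb4a found in another gene, so their separate counts are uncertain. Tnip3, which encodes a partner of the NF-kB inhibitor A20, rose 2.94-fold, and Neurl3, a ubiquitin ligase gene, 2.6-fold. Hist1h1d, a linker histone gene, rose from 3.70 and 3.88 to 17.5 and 14.8 CPM, and 8 of 51 tested replication-dependent histone genes were higher with none lower. With the length trend removed 3 histone genes were higher and 1 lower. The rises numbered 2 without the second monoculture library or the first co-culture library and 4 without the second co-culture library. Gsta3, a glutathione transferase gene at 17.4 and 5.81 CPM in co-culture against 5.65 and 2.50, is the least secure of the 14. It lost its call without the first co-culture library (adjusted p = 0.474), without the second monoculture library (0.249) and with DESeq2 (0.181).

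**Figure D2:**
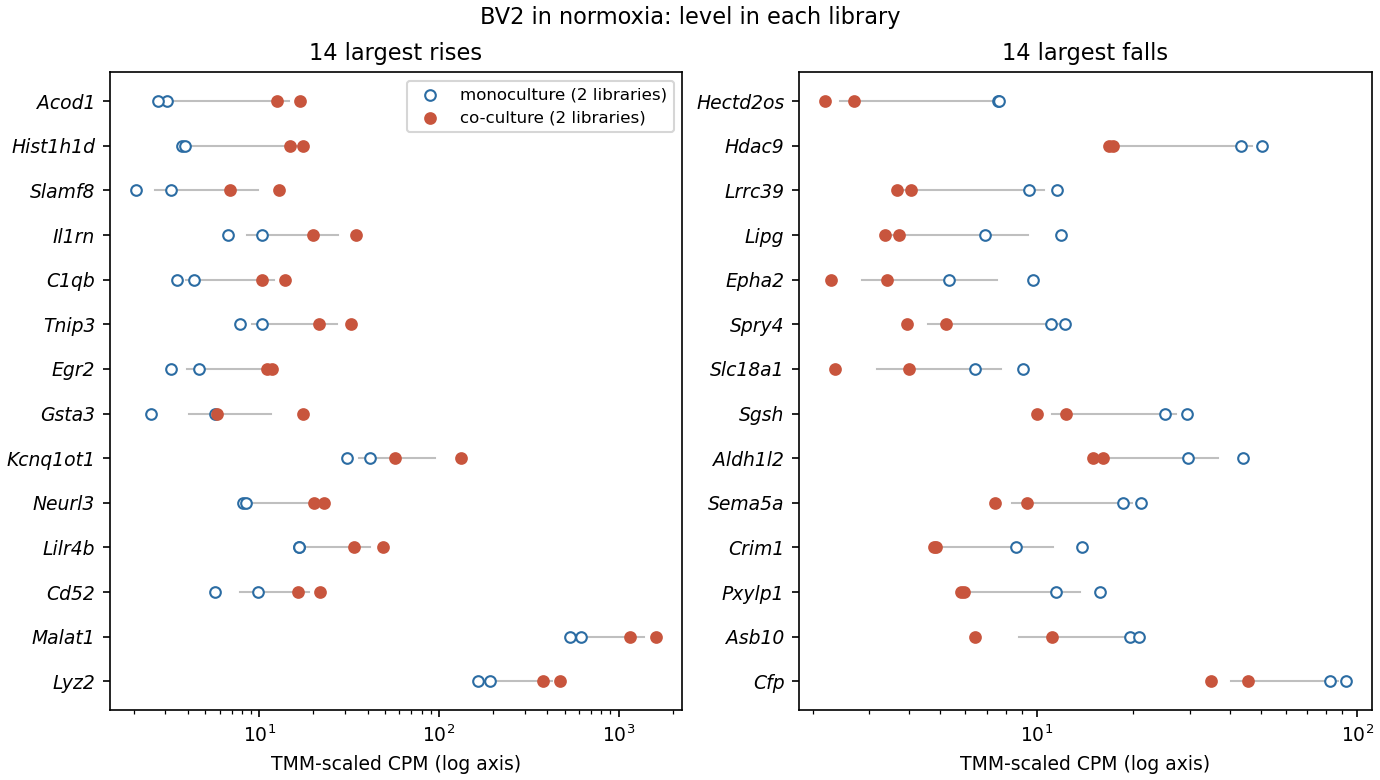
TMM-scaled CPM (log axis) in each of the 4 normoxic BV2 libraries for the 14 genes with the largest rise (left) and the 14 with the largest fall (right), open circles for monoculture and filled circles for co-culture, with a grey line joining the group means. The libraries of the groups do not overlap for any of them, which the choice of genes required. The smallest gap is that of Gsta3, at 5.65 and 5.81 CPM. Partner-high genes were left out of the choice.

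Among the 14 were also 2 long noncoding RNAs. Malat1, retained in the nucleus, went from 619 and 536 CPM to 1621 and 1155 (2.40-fold, edgeR adjusted p = 9.76e-05). Its level in GL261 monoculture, 2322 plain CPM, was 3.99-fold that in BV2 monoculture, so it fell just under the partner rule. At the mean share of 0.758%, GL261 RNA would add 3.03% to the monoculture level of a gene at 4-fold. Kcnq1ot1, a long RNA read antisense to Kcnq1, stood at 41.2 and 30.9 CPM alone and 132 and 57.2 in co-culture. The co-culture libraries differed from each other by more than the gap between the groups, and use of strand in counting is not stated, so reads of its antisense partner cannot be told apart. Next to Malat1 under the rule was Magi3 at 3.91-fold, with log2 -0.81 in co-culture, and just over it were Creb5 at 4.15-fold and Ggct at 4.18-fold, with log2 changes of 0.61 and 0.53.

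Of 15 tested chemokine and receptor genes 7 were higher and none lower in co-culture, where 3.08% of all genes were higher, and 5 were higher with the length trend removed. The median log2 change of the 15 was 0.89. Ccl3 and Ccl4 encode attractants of monocytes and T cells. Ccl3 was the most abundant that rose, at 313 and 310 CPM alone and 449 and 404 in co-culture (1.37-fold, edgeR adjusted p = 0.0148). With the length trend removed it no longer passed (adjusted p = 0.311). Ccl4 went from 10.6 and 9.40 to 19.9 and 16.9 CPM, and Ccl5 from 1.87 and 1.56 to 3.87 and 5.44. Ccl2, the main attractant of Ccr2-bearing monocytes, rose from 17.1 and 14 to 36.7 and 21.2 CPM. All 4 were nearly silent in GL261 monoculture, at 0 to 1.07 plain CPM. Cxcl16 rose from a very low level, 0.213 and 0.312 CPM, to 1.45 and 1.49. Ccl9, at 533 and 506 CPM alone and 401 and 505 in co-culture, and the receptor gene Cxcr4, at 92.2 and 90.5 against 105 and 115, did not pass the test. Without the second monoculture library 1 of the 15 genes passed, and without the first co-culture library 3 did.

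Of 27 cytokine and receptor genes 5 were higher and 2 lower (4 and 1 with the length trend removed), and with any 1 of the 4 normoxic libraries left out 1 or 2 were higher. Over all genes 3.08% were higher and 10.1% lower. Beside Il1rn, the rises included Il10ra, a chain of the interleukin-10 receptor, from 12.8 and 15 to 18.7 and 25.9 CPM. Csf2ra, a chain of the GM-CSF receptor, rose from 28.7 in both monocultures to 42.2 and 40.6 CPM. Il1b passed at levels of 0.638 and 0.401 against 1.52 and 1.44 CPM. The falls were Il6st, the shared signalling chain of the interleukin-6 receptor family, from 77.7 and 109 to 56.6 and 56.8 CPM, and Tgfbr2, from 45.2 and 58.7 to 35.5 and 35.2. Of these falls Il6st passed again with the length trend removed (adjusted p = 0.0444) and Tgfbr2 did not (0.166).

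In the Toll-like receptor and NF-kB list, 7 of 34 genes were higher and 3 lower (9 and 2 with the length trend removed). The shares over all genes were 3.08% higher and 10.1% lower. Irak2, a kinase of the receptor complex, went from 21.5 and 18.1 to 35.1 and 31.0 CPM, and Cd14, a co-receptor for lipopolysaccharide, from 52.2 and 60.4 to 83.6 and 85.8. The count of rises was 3 without the second monoculture library or the first co-culture library. Relb, an NF-kB subunit, rose 1.78-fold and Nfkbiz, a nuclear regulator of NF-kB target genes, 1.67-fold. Tlr9, the receptor for unmethylated DNA, moved the other way. Its levels were 30.4 and 37.4 CPM alone and 17.0 and 15.7 in co-culture (2.07-fold lower, edgeR adjusted p = 0.00408), with no overlap, and it was at 0 in GL261 cells.

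C1qb, a chain of the recognition molecule C1q, stood at 4.34 and 3.48 CPM alone and 13.8 and 10.3 in co-culture (3.07-fold, log2 1.62 ± 0.21 SE, edgeR adjusted p = 0.000232). C1qc rose from 3.83 and 5.21 to 9.61 and 7.58 CPM, and C3, the central component, from 48.5 and 45.8 to 98.5 and 74.4. Cfp, which encodes properdin, the stabiliser of the alternative pathway, fell from 92.0 and 82.4 to 45.7 and 35.0 CPM. In total 3 of 12 tested genes were higher and 1 lower, where 3.08% of all genes were higher and 10.1% lower. The same numbers passed with the length trend removed, though C1qc did not (edgeR adjusted p = 0.116). Without the second monoculture library or the first co-culture library 1 gene of the list was higher. Stab1, a scavenger receptor gene, rose 2.37-fold, from 10.2 and 9.54 to 26.8 and 20.2 CPM, against its long transcript of 7999 bases.

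Of 26 microglia and macrophage identity genes 3 were higher and 2 lower, where 3.08% of all genes were higher and 10.1% lower. The median log2 change was 0.09, and with the length trend removed 7 were higher and 2 lower. Aif1, which encodes the marker Iba1, rose from 1.66 and 1.47 to 6.43 and 4.80 CPM, and Lyz2 as above. Maf, a transcription factor of tissue macrophages, fell from 43.1 and 49.4 to 23.8 and 24.6 CPM (1.91-fold lower, edgeR adjusted p = 0.000346). Laptm5, an abundant lysosomal membrane gene of leukocytes, fell from 1272 and 1281 to 890 and 1014 CPM. Of 22 genes known from lipid-laden and disease-associated macrophages 6 were higher and 1 lower (8 and 1 with the trend removed). Igf1, a growth factor, rose from 10.1 and 9.27 to 26.8 and 14.1 CPM, Lgals3, which encodes galectin-3, from 453 and 350 to 632 and 660, and the fatty acid binding protein gene Fabp4 from 79.6 and 77.8 to 108 and 123. Cst7, a protease inhibitor gene, fell from 189 and 175 to 125 and 110 CPM. The abundant members Apoe, Lpl and Spp1 did not pass, with log2 changes of 0.05, -0.24 and 0.10. Without the second monoculture library 1 of the 22 was higher, and without the first co-culture library 3 were.

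The immediate early list holds transcription factors and feedback inhibitors induced by growth and stress signals. Of its 19 tested genes 8 were higher and 3 lower in co-culture (7 and 2 with the length trend removed). The median log2 change was 0.27, and of all genes 3.08% were higher and 10.1% lower. Without the second co-culture library 5 were higher, at a median of 0.09. Egr2 went from 3.23 and 4.63 to 11.1 and 11.8 CPM and Egr3 from 5.14 and 5.93 to 13.3 and 11.5; both are zinc finger transcription factors. Ier2 rose from 54.0 and 59.4 to 104 and 149 CPM, and Junb, an AP-1 subunit, from 54.1 and 61.3 to 98.4 and 117. Zfp36, whose product speeds the decay of cytokine mRNAs, rose from 17.9 and 24.0 to 35.1 and 46.3 CPM. The 3 falls were the ERK feedback inhibitor genes Spred1, from 142 and 176 to 89.3 and 93.1 CPM, and Dusp4, from 32.4 and 36.8 to 23.9 and 19.7, and the mRNA decay factor gene Zfp36l1. Spry4, a feedback inhibitor gene outside the list and among the 14 largest falls, went from 11.1 and 12.3 to 3.94 and 5.23 CPM (2.53-fold lower, edgeR adjusted p = 0.0025). No count was made over all genes of the Sprouty, Spred and dual-specificity phosphatase families. Jun itself, at 86.7 and 99.7 CPM alone and 96.1 and 124 in co-culture, did not pass. Fos, Nr4a1 and Dusp6 belong to the same list but are partner-high and follow below.

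Both groups were at 21% oxygen. Of 31 oxygen-regulated and glycolytic gene entries 10 were higher and 3 lower, where 3.08% of all genes were higher and 10.1% lower. With the length trend removed 9 were higher and none lower. Bnip3, a mitophagy receptor gene, stood at 23.8 and 26.6 CPM alone and 36.4 and 73.2 in co-culture. Ankrd37 went from 6.67 and 5.08 to 9.61 and 17.6 CPM, and Egln3, an oxygen-sensing prolyl hydroxylase gene, from 9.35 and 8.42 to 12.6 and 19.0. In each of these the second co-culture library was the higher, and without it none of the list passed as higher. The glycolytic genes Aldoc and Gapdh rose 1.36-fold and 1.42-fold. Hif1a, which encodes the oxygen-labile transcription factor, fell from 163 and 204 to 139 and 120 CPM, but not with the length trend removed (adjusted p = 0.0966). Reads of Gapdh can also fit its pseudogenes, with 22.6% of its 75-base words shared. Without the second monoculture library 1 of the list was higher, and 5 were without the first.

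Of 23 cholesterol synthesis and uptake genes 5 were higher and none lower (7 and none with the length trend removed). For this and the other lipid groups, the shares over all genes were 3.08% higher and 10.1% lower. Fdft1, the squalene synthase gene, rose from 70.0 and 81.6 to 103 and 127 CPM and Mvd, of the mevalonate route, from 96.7 and 108 to 127 and 175. Sqle, the squalene epoxidase gene, did not pass, with a log2 change of 0.06. Of 13 fatty acid genes 1 was higher and 4 lower (1 and 2 with the trend removed). Srebf1, the transcription factor gene of that route, fell from 198 and 224 to 126 and 145 CPM, and Acaca, the gene of the carboxylase that commits acetyl units to fatty acids, from 170 and 204 to 114 in both. Of 13 cholesterol efflux and liver X receptor target genes 4 were lower and none higher (2 and none with the trend removed), among them Abca1, from 44.9 and 62.9 to 34.4 and 30.0 CPM, and Abcg1, from 107 and 104 to 80.0 and 76.6. With the trend removed neither Abca1 nor Abcg1 passed (adjusted p = 0.0749 and 0.324), while Srebf1 did (0.0112). No cholesterol synthesis gene was higher without the first monoculture library or the second co-culture library, and none of the fatty acid or liver X receptor genes was lower without the second monoculture library.

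Hdac9 had the second largest fall among genes at 5 CPM or more. It encodes a class IIa histone deacetylase and lies on chromosome 12 (34047580 to 34917095, GRCm38). It stood at 43.5 and 50.5 CPM in the monocultures and 16.9 and 17.3 in the co-cultures. The replicates were close and the groups far apart (2.75-fold lower, log2 -1.46 ± 0.18 SE, 95% interval -1.96 to -0.95, edgeR adjusted p = 0.000127). Its longest transcript has 7940 bases, and with the length trend removed the log2 change was -1.15 (adjusted p = 0.000153). GL261 monoculture had 7 plain CPM, so partner RNA at the measured share would add under 0.1 CPM. The class IIa genes Hdac4 and Hdac5 were lower by less, Hdac4 at 41.9 and 45.7 against 31.0 and 30.6 CPM and Hdac5 at 117 and 108 against 69.8 and 84.9. They did not pass with the length trend removed (adjusted p = 0.291 and 0.119). Hdac1, Hdac2, Hdac3, Hdac6, Hdac8 and Hdac10 did not pass, with log2 changes between -0.20 and 0.20. The remaining class IIa gene, Hdac7, is partner-high and did not pass. Its log2 change was above 0 in all alternatives, between 0.02 and 1.13. Thus 3 of the 9 tested members outside the partner-high genes were lower and none higher, beside 10.1% and 3.08% of all genes. Without the first co-culture library 1 was lower. Histone deacetylases were the target of the inhibitor used elsewhere in the series.

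The other large falls came from genes of varied function. Hectd2os, a noncoding RNA antisense to Hectd2, fell from 7.57 and 7.62 to 2.70 and 2.19 CPM, with the same doubt over strand as Kcnq1ot1. Lrrc39 fell from 11.6 and 9.49 to 3.67 and 4.05 CPM and was at 0 in GL261 cells. The semaphorin gene Sema5a fell from 18.6 and 21.2 to 7.4 and 9.34 CPM. Aldh1l2, a mitochondrial folate enzyme gene, fell from 43.9 and 29.6 to 16.1 and 15 CPM although GL261 cells held 118 plain CPM. In each the groups were apart, which the choice of genes required. Lipg, the endothelial lipase gene, Epha2, an ephrin receptor gene, Slc18a1, a monoamine transporter gene, and Crim1, which encodes a regulator of bone morphogenetic proteins (BMP), fell 2.33-fold to 2.65-fold, but each lost its call without 1 library. For Lipg and Crim1 that was the second monoculture library (adjusted p = 0.0871 and 0.0947). Epha2 lost it there too (0.155) and without the first co-culture library (0.0737), and Slc18a1 without the first monoculture library (0.0729) or the second co-culture library (0.122). Pxylp1 and Asb10 fell 2.32-fold and 2.27-fold.

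Genes of transforming growth factor beta (TGF-beta), BMP and Notch signalling formed the list with the largest share of falls. Of 13 tested members 7 were lower and 1 higher, where 10.1% of all genes were lower and 3.08% higher. The median log2 change was -0.52. With the length trend removed 4 were lower and 1 higher, at a median of -0.26, and without the second monoculture library 1 was lower and none higher. Without the first or the second co-culture library 4 were lower. Bambi, a decoy receptor gene, fell from 32.8 and 32.6 to 13.7 and 16.8 CPM (2.14-fold lower, edgeR adjusted p = 0.000294). Id2, a helix-loop-helix inhibitor and BMP target, fell from 60.4 and 71.2 to 45.1 and 42.4 CPM. Bmpr2, a BMP receptor gene, stood at 85.1 and 117 against 63.1 and 64.8 CPM, and Rbpj, the DNA-binding partner of Notch, at 160 and 174 against 121 and 117. Notch2 went from 123 and 143 to 97.0 and 88.0 CPM. Of these 5, Bambi and Id2 passed with the trend removed.

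Since 7 of these 13 genes fell, the promoters of Id2, Bmpr2 and Rbpj are shown, 300 bases from RefSeq on build GRCm38.p6, from 250 before to 50 after a start site. They were searched on both strands for CAGAC, the half-site bound by SMAD proteins, and TGGGAA, the core bound by RBPJ. Capitals mark matches.
Id2, chr12:25096043-25096342, minus strand: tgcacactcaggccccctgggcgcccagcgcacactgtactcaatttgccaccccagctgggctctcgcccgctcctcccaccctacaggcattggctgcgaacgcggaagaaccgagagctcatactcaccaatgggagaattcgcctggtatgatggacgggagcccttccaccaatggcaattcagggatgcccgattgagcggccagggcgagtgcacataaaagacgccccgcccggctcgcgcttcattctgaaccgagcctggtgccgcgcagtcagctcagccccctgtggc
Bmpr2, chr1:59764029-59764328, plus strand: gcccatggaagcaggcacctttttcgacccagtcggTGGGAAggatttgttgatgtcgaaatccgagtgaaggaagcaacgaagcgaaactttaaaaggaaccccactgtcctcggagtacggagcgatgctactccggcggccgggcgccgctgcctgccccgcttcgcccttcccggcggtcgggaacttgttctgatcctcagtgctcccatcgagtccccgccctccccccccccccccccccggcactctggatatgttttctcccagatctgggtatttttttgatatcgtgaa
Rbpj, chr5:53590096-53590395, plus strand: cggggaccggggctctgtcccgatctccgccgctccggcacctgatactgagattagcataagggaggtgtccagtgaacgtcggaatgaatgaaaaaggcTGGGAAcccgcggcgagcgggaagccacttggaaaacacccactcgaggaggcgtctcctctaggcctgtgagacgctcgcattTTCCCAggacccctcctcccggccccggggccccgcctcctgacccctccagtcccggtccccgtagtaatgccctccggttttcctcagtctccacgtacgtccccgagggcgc
None of the 3 holds CAGAC, which 49.6% of all 32851 promoters of that length hold. TGGGAA occurs once in Bmpr2 and 2 times in Rbpj, and in 25.6% of all promoters. The windows of Notch2 and the RefSeq start of Rbpj further downstream hold 0 and 1 TGGGAA. The windows of Rbpj overlap, and that 1 match is also in the window shown. No other motif was searched, so lack of CAGAC does not show that a promoter lacks sites for SMAD proteins. These matches are descriptions of letters and show no binding.

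Of 47 tested lysosomal enzyme genes 11 were lower and 2 higher, and 6 and 1 with the length trend removed. Sgsh, the sulfamidase that degrades heparan sulfate, had the largest fall, from 25.1 and 29.4 to 10.0 and 12.3 CPM (2.43-fold lower, edgeR adjusted p = 8.39e-05). Arsb, a sulfatase gene, fell from 170 in both monocultures to 96.5 and 91.2 CPM, and Glb1, the beta-galactosidase gene, from 87.9 and 92.8 to 58.8 and 67.1. The cathepsin gene Ctsh rose, from 52.8 and 52.2 to 67.6 and 75.6 CPM. Of 30 lysosomal membrane, proton pump and regulator genes 4 were lower, among them Rragd and Mitf, close to the 10.1% of all genes that were lower, and 1 was lower with the trend removed. None was lower without the second monoculture or the second co-culture library. The count of lower enzyme genes was 2 without the first co-culture library, 3 without the second monoculture library and 5 without the second co-culture library.

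Of 22 amino acid and nutrient transporter genes 8 were lower and 2 higher, and 3 and 3 with the length trend removed. For this and the following groups the shares over all genes were 10.1% lower and 3.08% higher. Slc1a4, a neutral amino acid transporter gene, fell from 27.4 and 28.0 to 12.1 and 15.2 CPM, and Slc7a5, of the large neutral amino acid carrier, from 292 and 299 to 191 and 194. Both passed with the trend removed. Without the second monoculture library or the first co-culture library 2 of the 22 were lower, and 5 without the second co-culture library. Of 17 iron and metal genes 5 were lower and 1 higher, and 1 and none with the trend removed. That 1 was Ncoa4, the cargo receptor for ferritin breakdown, at 125 in both monocultures and 65.2 and 66.0 CPM in co-culture (1.91-fold lower, edgeR adjusted p = 0.000255). Without the first co-culture library 1 of the 17 was lower, and 2 were without the second monoculture or the second co-culture library. Of 15 growth factor and receptor genes 5 were lower and 2 higher, and 1 and 2 with the trend removed. Kdr, the VEGF receptor gene, fell from 27.3 and 34.0 to 15.3 and 13.7 CPM. Of these 15, 1 was lower without the second monoculture or the second co-culture library. Of 34 adhesion and migration genes 7 were lower and 1 higher, but 2 and 5 with the trend removed, and 1 was lower without the second monoculture or the first co-culture library and 4 without the second co-culture library. Rhoc, a small GTPase gene of cell movement, rose from 52.3 and 39.9 to 86.2 and 83.5 CPM.

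The remaining lists are given by their counts, beside 3.08% of all genes higher and 10.1% lower. Of 22 class I presentation genes 2 were higher and 2 lower (2 and 1 with the trend removed), and of 10 class II genes 1 was higher (2 with the trend removed). That 1 was Cd74, the invariant chain, from 126 and 111 to 170 and 179 CPM. Of 21 interferon-stimulated genes 2 were higher and none lower, Ifitm3 from 140 and 94.3 to 175 and 162 CPM and Rsad2 from 4.17 and 2.81 to 6.22 and 5.81, and 1 was higher with the trend removed. Of 40 DNA replication genes 3 were lower, of 38 mitosis genes 4 and of 16 heat shock genes 2, with none higher. With the trend removed 1 mitosis gene was higher and 1 lower, and none of the replication or heat shock genes passed. Of 84 cytosolic ribosomal protein genes 15 were higher and none lower, at a median log2 change of 0.35, and 7 were higher with the trend removed. That count was 40 with TMM factors taken without partner-high genes, 0 without the second monoculture or the second co-culture library and 1 without the first co-culture library. Of 78 nuclear genes of the respiratory chain 2 were higher, with and without the trend, but 11 with TMM factors taken without partner-high genes. Mitochondrially encoded transcripts were higher for 4 of 12, mt-Nd6 by 2.04-fold, and none passed with the trend removed or without the first co-culture library. Among 30 genes of the unfolded protein and integrated stress responses 1 was higher and 5 lower (2 and 3 with the trend removed). Among 24 NRF2 targets 3 were higher and none lower in both fits, and 8 were higher with TMM factors taken without partner-high genes. Among 20 p53 targets 3 were higher and 5 lower (3 and 3 with the trend removed). Of 23 checkpoint and suppressive genes 2 were higher and 1 lower in both fits, of 22 matrix genes 2 and 4 (3 and 2 with the trend removed), and of 15 scavenger and efferocytosis receptors 1 and 2 (1 and none). These counts leaned on single libraries too. No gene of the class I, class II, interferon, replication, mitosis, heat shock, respiratory chain, NRF2 or matrix lists passed without the second monoculture library.

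**Figure D3:**
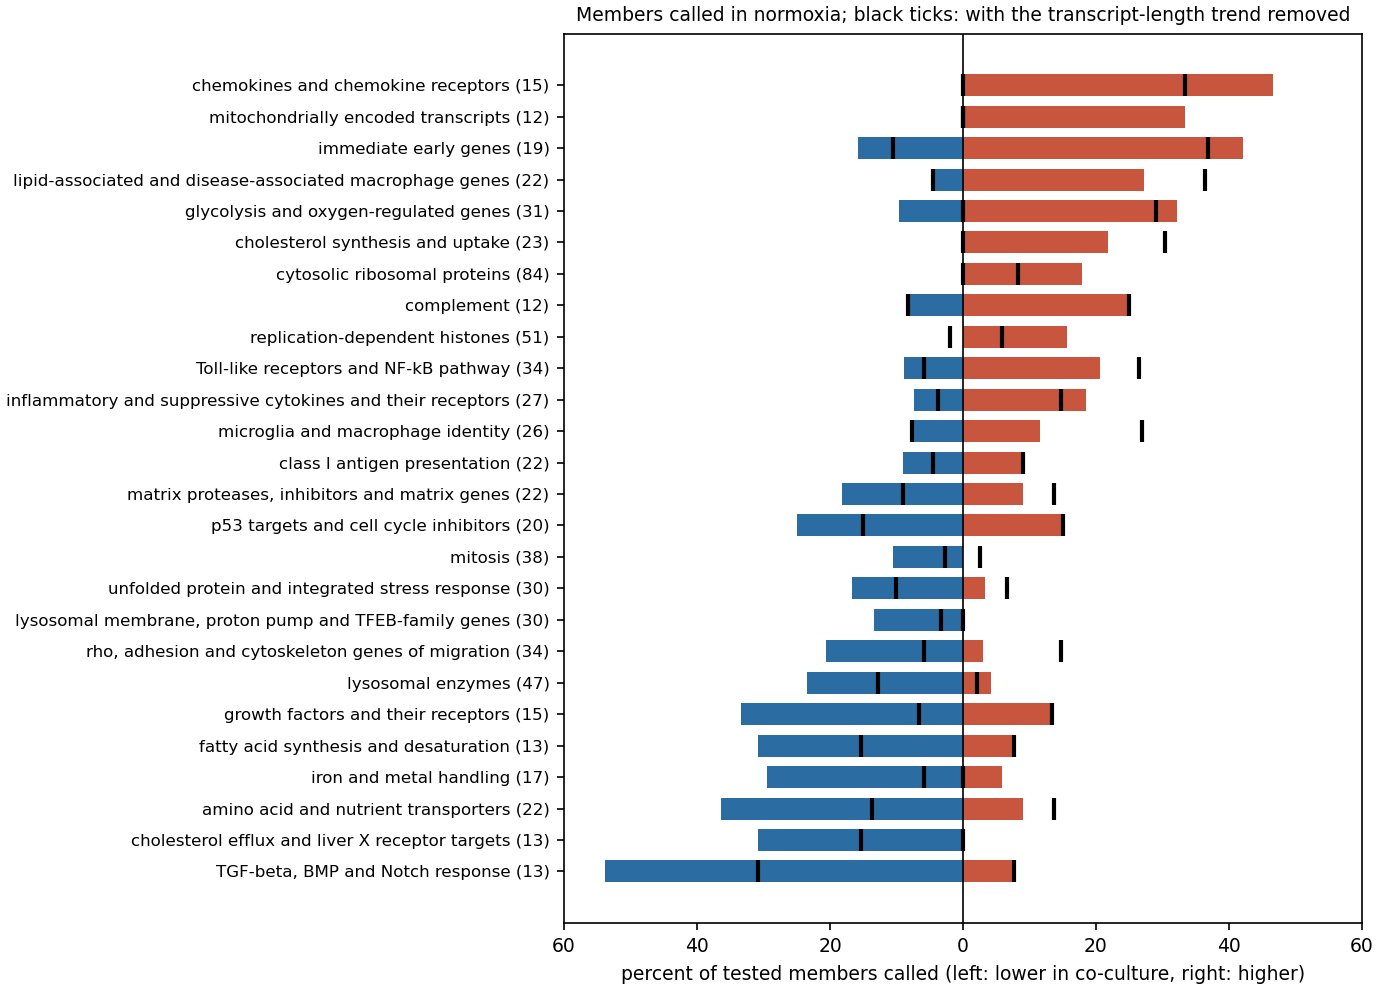
For each gene list with at least 4 called genes, the percent of tested members outside the partner-high genes (number in brackets) that were higher (red, right) or lower (blue, left) in BV2 co-culture in normoxia, with black ticks for the percent when the trend with transcript length was removed. Chemokines stand at the top with 7 of 15 higher and TGF-beta, BMP and Notch genes at the bottom with 7 of 13 lower, and many blue bars shorten to their ticks.

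Partner-high genes were higher in co-culture for 437 of 1579 (27.7%) and lower for 27 (1.71%). The rise of these 437 genes had a median of 0.872% of the GL261 level, with quartiles at 0.707% and 1.39%, beside a measured GL261 share of 0.758%. The 282 genes behind that share are partner-high themselves, so the closeness of the share and the median is in part built in. Among the largest, the glial transcription factor gene Olig1 had no count in either monoculture and 2.77 and 2.19 CPM in the co-cultures, 1.10% of its GL261 level. Mmp17, a membrane-bound metalloprotease gene, had none and then 5.05 and 2.72 CPM (1.14%), and Col3a1, a fibrillar collagen gene, none and then 3.04 and 2.40 (0.535%). Myo5b, Efs and Fkbp10 behaved alike, at 0.886%, 0.917% and 0.808%. The 46 genes whose rise reached 10% of the GL261 level stand apart from that line. Fos, the AP-1 subunit gene, went from 5.02 and 6.68 CPM to 22.1 and 33.3 (4.77-fold, log2 2.25 ± 0.19 SE, edgeR adjusted p = 2.94e-06). With 58.6 plain CPM in GL261 monoculture, that rise is 39.3% of the GL261 level against a share of 0.758%. Nr4a1, an orphan receptor and immediate early gene named for its place in that list, rose from 5.06 and 6.77 to 22.2 and 29.8 CPM, or 8.47%. Isg15, an interferon-induced ubiquitin-like modifier gene, rose from 5.02 and 2.99 to 9.96 and 8.54 CPM (23.4%), and Neat1, the noncoding RNA of paraspeckles, from 96.6 and 111 to 241 and 198 (19.0%). The corresponding share was 24.3% for Rora, 18.6% for Amn1 and 16.0% for Gsap. Myc, at 0.867%, lay on the line.

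The 27 partner-high genes that fell moved against the direction in which GL261 RNA adds. Id3, a BMP target, stood at 14.3 and 13.1 CPM alone and 3.11 and 1.92 in co-culture (5.55-fold lower, log2 -2.47 ± 0.21 SE, edgeR adjusted p = 3.31e-06). That is the same direction as Id2 and Bambi. Nrcam, a cell adhesion gene, fell from 8.29 and 9.09 to 3.18 and 3.95 CPM, and Klhl30 from 2.34 and 2.99 to 0.761 and 0.8. Dmpk, at 1.15 and 0.847 against 0.415 and 0.160 CPM, lost its call in 9 of 12 alternatives (adjusted p between 0.0176 and 0.314). Dusp6, an ERK phosphatase gene, fell from 15.9 and 17.7 to 10.4 and 11.5 CPM.

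**Figure D4:**
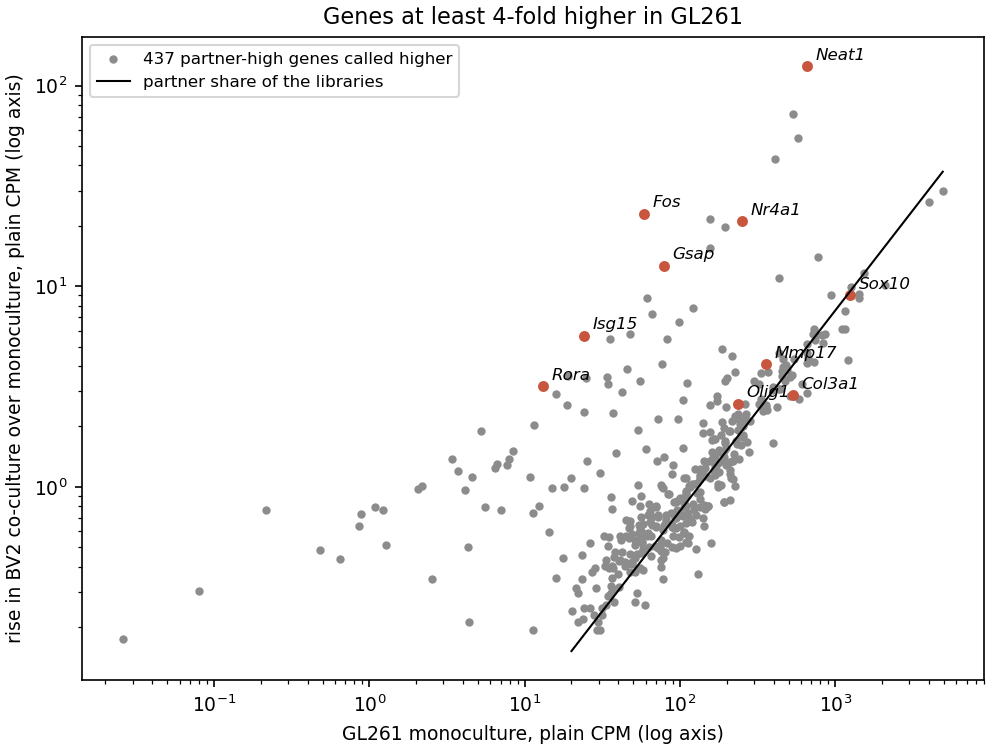
Rise in plain CPM of BV2 co-culture over monoculture in normoxia against the level in GL261 monoculture (both log axes) for the 437 partner-high genes called higher, with the rise that the mean GL261 share of 0.758% would give as a line. Most points follow the line, which was itself computed from partner-high genes. Fos, Rora, Isg15, Gsap, Nr4a1 and Neat1 lie well above it.

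In hypoxia the same co-culture was measured in 4 other libraries, where 4.38% of genes outside the partner-high set were higher and 8.35% lower and where the GL261 share was larger, 2.04% and 2.38%. Of the 396 normoxic rises 261 (65.9%) had the same sign in hypoxia and 71 (17.9%) passed there, against 46.6% of all genes above 0. Of the 1292 falls 1031 (79.8%) had the same sign and 380 (29.4%) passed, against 53.4% below 0. Deviations of same-numbered libraries correlated between the oxygen levels at 0.495 in monoculture and 0.287 in co-culture. Whether the hypoxic libraries are independent of the normoxic ones was not tested. Neurl3 and C3 rose in both, by log2 1.40 and 1.34 in hypoxia, and Hdac9 fell in both, from 46.7 and 61.7 to 39.9 and 26.2 CPM (log2 -0.71, edgeR adjusted p = 0.00987). The difference between its 2 effects did not pass (adjusted p = 0.116). The median change by transcript length was flat there, at -0.063 in the shortest group and -0.057 in the longest.

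The co-culture effect differed with oxygen for 49 of the 396 rises and 56 of the 1292 falls, by the interaction term of edgeR at an adjusted p under 0.05. Over all 12853 genes, with or without a normoxic call, 281 (2.19%) passed that test. The rises and falls were chosen for a normoxic change, which by itself favours a smaller change elsewhere. The normoxic effect also sloped with transcript length while the hypoxic one was flat. The part of length in these differences was not tested. Zfp36 was higher in hypoxic monoculture, at 75.8 and 76.3 CPM, than in any normoxic library, and lower in hypoxic co-culture, at 50.6 and 38.3 (interaction log2 -1.74 ± 0.23 SE, adjusted p = 0.00296). Junb stood at 346 and 301 CPM alone and 375 and 308 with GL261 in hypoxia, without the rise seen in normoxia (interaction adjusted p = 0.0353). Acod1 stood at 8.85 and 6.26 against 15.9 and 7.82 CPM in hypoxia (interaction adjusted p = 0.0430), where its libraries overlap in range. Lilrb4a was at 56.2 and 81.6 CPM alone and 61.2 and 48.1 in co-culture under hypoxia, against its rise in normoxia (interaction adjusted p = 0.0132). Id3, at 11.4 and 10.8 against 11.4 and 12.1 CPM, and Aldh1l2, at 158 and 230.0 against 232 and 284, did not fall in hypoxia (interaction adjusted p = 0.00102 and 0.0106).

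In BMDM grown with the same glioma line in normoxia 40 genes outside the partner-high set passed as higher (0.342% of 11708) and 7 as lower (0.0598%). That set was defined from GL261 and BV2 levels, and the GL261 share of the BMDM libraries was not measured. The part of GL261 RNA in the BMDM changes was thus not tested. The spread between those libraries was larger, with a coefficient of biological variation of 0.222 against 0.0958 for BV2. Of 371 BV2 rises tested there 332 (89.5%) had the same sign and 14 passed, and of 1266 falls 1099 (86.8%) had the same sign and 2 passed, against 46.3% above and 53.7% below 0 over all genes. The median change by length sloped the same way in BMDM, from 0.19 to -0.14, and its part in the shared signs was not tested. Aif1 passed in BMDM at log2 1.61 (edgeR adjusted p = 0.0129), and Bnip3 at 0.86 (0.0469). Acod1 and Il1rn stood at 3.72 and 2.44 without passing (0.282 and 0.175), and Hdac9 at -0.23 (0.814). Egr3 went the other way and passed, at -2.34 (0.0393). Whether the effects differ between BV2 and BMDM was not tested, since the tables were separate.

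**Figure D5:**
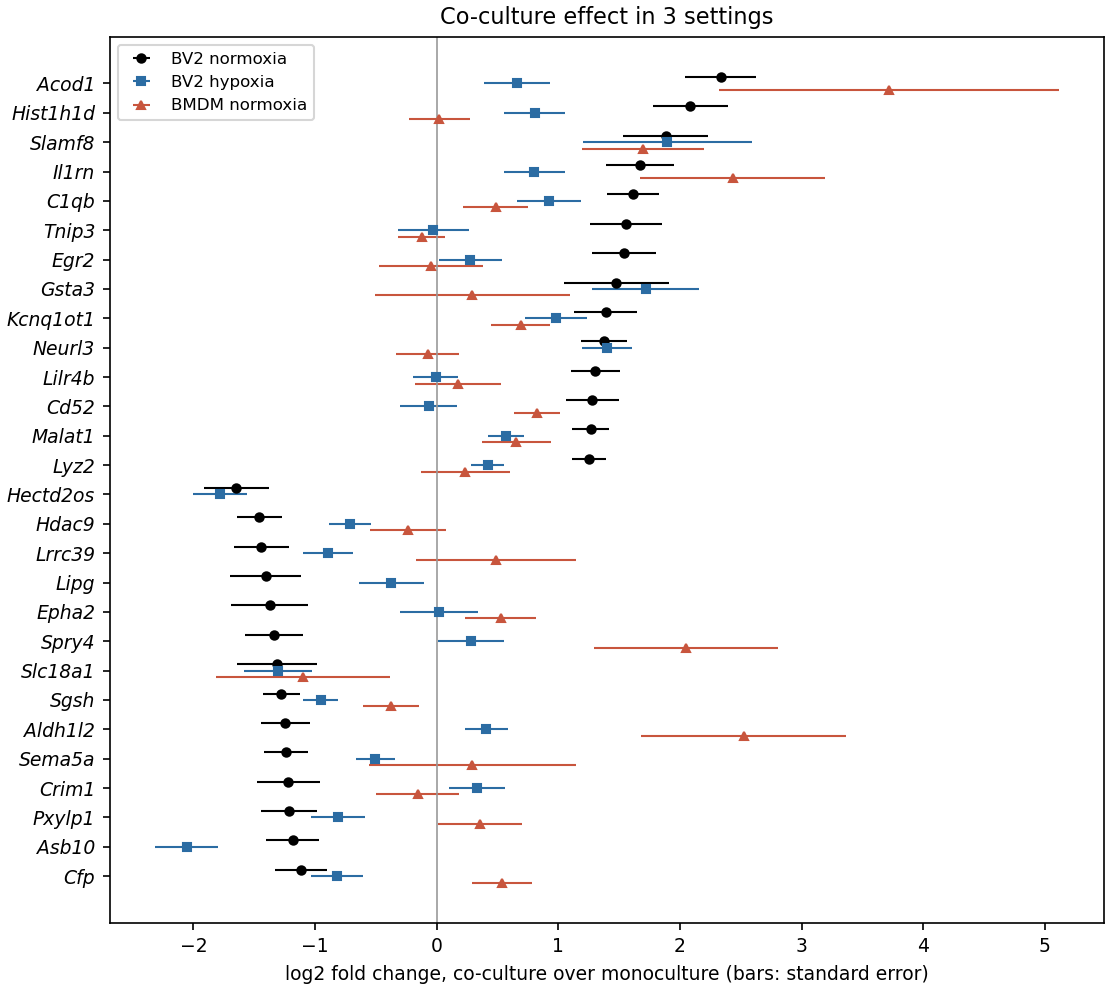
Log2 fold change of co-culture over monoculture, with standard error bars, for the 28 genes with the largest changes in BV2 in normoxia (black circles), with the same genes in BV2 in hypoxia (blue squares) and in BMDM in normoxia (red triangles). Neurl3, Slamf8 and Slc18a1 sit close to their normoxic value in hypoxia, while Tnip3, Lilr4b and Cd52 sit near 0, and 3 genes have no BMDM value. Partner-high genes were left out of the choice.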

How the data were processed

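Whole-transcriptome poly(A) RNA-seq of cultured mouse cells was analysed from gene counts. The authors deposited raw counts per gene. Per the submitters' processing notes, Trimmomatic 0.36, STAR 2.6, Picard 2.17.1, SAMtools, HTSeq 0.9.1, deepTools and build mm10 were used, and whether counting used strand is not given in the sources used here. The panobinostat table was not used.

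Counts of the 8 BV2 mono- and co-culture libraries were fitted together in edgeR 4.0.16 (R 4.3.3, limma 3.58.1) with TMM factors, the default filter on low counts (filterByExpr, minimum count 10, minimum total 15), the quasi-likelihood test and Benjamini-Hochberg adjustment over all 14432 genes at 0.05. The fit had 4 residual degrees of freedom, and p-values measure the spread between these libraries. BMDM libraries were fitted apart, with 14806 genes. DESeq2 1.42.0 was an alternative. The GL261 share is the median, over genes at 20 CPM or more in GL261 cells and 100-fold above BV2 monoculture (0.5 CPM added), of the BV2 library's level over the GL261 level. Transcript lengths and coordinates are from GENCODE on GRCm38 and promoters from RefSeq. On simulated data of the same design with 13978 genes, 50 of 50 log2 changes of 1 and 23 of 50 of 0.5 were recovered, and 7 of 13778 unchanged genes were called. The simulation used 1 spread for all genes and made changes only in genes at a mean of at least 5 CPM. It held no length trend and no added GL261 RNA, so recovery and false calls may be worse in the measured data.

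Named genes were, outside partner-high genes, the 14 called rises and 14 called falls that were largest at a mean of at least 5 CPM without overlap, leaving out predicted genes, up to 6 members of each list with the smallest adjusted p, and members that a reader may miss. Among partner-high genes they were the 6 largest rises, up to 4 falls, up to 6 whose rise reached 10% of the GL261 level, and all tested histone deacetylases. The genes, lists and tests were chosen with earlier results of these data known. Same-numbered libraries of the compared groups did not deviate together. Values of a few list members are not reported here.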

Additional observations from a re-analysis of the deposited data

Results flagged for a closer look

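The co-culture effect differed between hypoxia and normoxia, by the interaction term of edgeR at an adjusted p under 0.05, for 29 of the genes named. Values are the log2 effect in hypoxia minus that in normoxia. Genes picked for a normoxic change tend to show a smaller one in other libraries, and the GL261 share was larger in hypoxia. The median normoxic effect also went from 0.23 in genes with the shortest transcripts to -0.28 in those with the longest. In hypoxia the median effect was flat, at -0.063 and -0.057. The part of transcript length in these differences was not tested.

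Among immune and lysosomal genes that rose in normoxia, the difference was Cxcl16 -3.04, Acod1 -1.68, Lilrb4a -1.57, Cd52 -1.35, Lilr4b -1.31, Il10ra -1.10, Fabp4 -0.96, Lyz2 -0.83 and Ctsh -0.80. Among immediate early and other regulators that rose it was Zfp36 -1.74, Fos -1.56, Btg2 -1.44, Rora -0.99 and Junb -0.82. For the metabolic, respiratory and ribosomal genes that rose it was Pmvk -0.83, Aldoc -0.82, Rpl38 -0.80, Cox6c -0.70 and Cox7b -0.70. Among genes that fell in normoxia it was Id3 2.56, Nrcam 1.66, Aldh1l2 1.65, Spry4 1.62, Crim1 1.55, Hyou1 1.22, Slc39a10 1.06, Kdr 0.98, Slc39a14 0.90 and Rbpj 0.77.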

How the results depend on the processing

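Outside the partner-high genes 1688 passed, and 894 did with the trend of transcript length removed, an alternative chosen after seeing the data. Leaving out 1 library gave 240 to 1382, with 240 without the second monoculture library, 404 without the first co-culture library and 684 without the second. The other alternatives gave 1155 to 2141. No call was reversed under any alternative run. Of 197 named genes, 190 of which had passed, 113 did not pass without the second monoculture library, 92 without the first co-culture library, 85 without the second, 67 with the length trend removed and 13 with DESeq2. Among partner-high genes 464 passed, 90 at a mean of at least 5 CPM and 211 to 380 with 1 library left out (211 without the second monoculture library, 244 without the first co-culture library). The count passing in BMDM in the same direction, 16, was 68 with DESeq2 and 30 with the replicate block.

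A replicate block in the fit gave 1793 calls outside the partner-high genes and 466 among the partner-high ones. Of the 1688 calls of the main fit, 477 passed in hypoxia in the same direction with the block, against 451 without it. Deviations of same-numbered libraries of the groups compared correlated at -0.044, so these numbers do not pair them. Between the oxygen levels such deviations correlated at 0.495 in monoculture and 0.287 in co-culture. Depth of 13548843 to 23568254 counts and 2 libraries a group limit small changes, since 8 of 50 simulated log2 changes of 0.4 were recovered.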
